A study of Mus musculus with 12 samples.

Results

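The oligoadenylate synthetase (OAS) genes Oas1a, Oas1b, Oas1c, Oas1g, Oas2, Oas3, Oasl1 and Oasl2 were followed in C2C12 cells, a mouse myoblast line, on 12 single-colour Agilent arrays. Their probes were found by the transcript accession that the array files give for each probe, and 9 of the 39429 probes belonged to them. These 9 probes covered 7 of the 8 genes, out of 20655 named genes on the array, since no probe carried the accession that the RefSeq table at hand lists for Oas1b. A pair of probes (A_55_P1998962 and A_55_P1959064) carries another accession, which that table does not list and which may be of Oas1b, and was not used. The study transfected the line to raise or lower MEG3, a long non-coding RNA of the imprinted Dlk1-Dio3 locus, and took RNA 72 h later. There were 4 groups of 3 arrays: pcDNA3.1-MEG3, titled as overexpression, pcDNA3.1, titled as pat1, siRNA, titled as knockdown, and negative control, titled as control. All groups were C2C12 cells that had been transfected, and the labels say neither what the negative control contained nor whether the replicates were separate cultures.

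OAS enzymes are interferon-induced sensors of double-stranded RNA. When they bind it they join ATP into short adenylate chains with 2′-5′ bonds (2-5A), a second messenger of the antiviral response. The mouse carries a cluster of duplicated Oas1 genes, of which Oas1a and Oas1g encode active synthetases, the larger Oas2 and Oas3 with repeated synthetase domains, and the OAS-like genes Oasl1 and Oasl2, whose proteins end in ubiquitin-like domains.

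The family is known for the interferon-stimulated response element (ISRE) in its promoters, a site bound by transcription factors that interferon activates. RefSeq promoter sequences of mouse build GRCm38.p6, from 250 bases before to 50 after the transcription start, were at hand for 8 OAS genes. The letters GAAANNGAAA, searched on both strands, were present in 4 of these 8 promoters and in 1131 of 32851 promoters of the same length (3.44%). The 4 are shown because they let the levels below be read beside the letters of the element. They come from chr5:120907476-120907775 (Oas1a), chr5:120887564-120887863 (Oas1g), chr5:120777610-120777909 (Oas3) and chr5:120812465-120812764 (Oas1c), all from the minus strand and written 5′ to 3′, with the matches in capitals.
Oas1a: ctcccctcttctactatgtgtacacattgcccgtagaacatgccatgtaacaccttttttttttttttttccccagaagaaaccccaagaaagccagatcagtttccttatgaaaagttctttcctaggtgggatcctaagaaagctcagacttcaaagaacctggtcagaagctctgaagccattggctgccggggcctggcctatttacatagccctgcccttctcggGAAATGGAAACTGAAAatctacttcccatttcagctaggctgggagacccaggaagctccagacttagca
Oas1g: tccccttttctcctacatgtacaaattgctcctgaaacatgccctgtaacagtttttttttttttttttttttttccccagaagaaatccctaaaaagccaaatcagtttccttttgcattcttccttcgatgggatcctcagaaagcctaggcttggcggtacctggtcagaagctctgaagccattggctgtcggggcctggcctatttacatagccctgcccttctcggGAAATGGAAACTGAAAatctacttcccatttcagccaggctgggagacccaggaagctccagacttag
Oas3: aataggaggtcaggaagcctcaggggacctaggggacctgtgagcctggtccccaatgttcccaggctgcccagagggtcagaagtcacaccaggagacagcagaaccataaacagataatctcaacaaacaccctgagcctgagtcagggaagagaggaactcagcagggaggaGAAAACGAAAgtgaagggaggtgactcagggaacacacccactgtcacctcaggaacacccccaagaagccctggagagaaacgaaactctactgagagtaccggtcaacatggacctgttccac
Oas1c: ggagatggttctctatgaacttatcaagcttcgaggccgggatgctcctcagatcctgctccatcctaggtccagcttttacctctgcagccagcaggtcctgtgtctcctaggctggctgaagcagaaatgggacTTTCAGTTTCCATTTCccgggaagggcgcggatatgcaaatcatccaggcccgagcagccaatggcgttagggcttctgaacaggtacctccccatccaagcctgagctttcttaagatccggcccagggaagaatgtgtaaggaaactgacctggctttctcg

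The first matched base lay 20 bases before the start of Oas1a, in the sequence GAAATGGAAA, which runs into a second match, GAAACTGAAA, at 14 bases before the start. Oas1g held the same pair of overlapping matches, and its promoter was identical to that of Oas1a at 261 of 294 aligned bases (88.8%). Oas3 had 1 match, GAAAACGAAA, and Oas1c had a pair of overlapping matches on the opposite strand, printed here as TTTCAGTTTC and TTTCCATTTC. The promoters of Oasl1, Oasl2, Oas1f and Oas1h held no such letters in this window. A second element, the gamma-activated site searched as TTCNNNGAA, matched in the Oas1a promoter alone among the 8 (TTCAAAGAA) and in 2726 of all 32851 promoters (8.3%). A match describes the letters and does not show a bound site.

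Levels are given as the log2 of the array's processed spot signal minus that array's 75th percentile, so that 0 is the 75th percentile of all probes. Between 24454 and 29929 of the 39429 probes per array (62.0% to 75.9%) were well above background, with a signal of 1168 to 2266 at the 75th percentile. Replicates 1 and 3 of pcDNA3.1-MEG3, pcDNA3.1 and siRNA shared a slide position in separate scans and differed by 0.287, 0.206 and 0.161 times the spot noise, so each such pair stands for 1 sample. In the negative control, replicates 1 and 3 differed by 0.760 times that noise and replicate 2 from them by 2.43 and 2.33 times, and replicates 1 and 3 stand for 1 sample there too. Replicates 1 and 2 of the other groups (0.715 times in pcDNA3.1-MEG3, 0.814 in pcDNA3.1 and 1.1 in siRNA) stand for 2 samples although some of them are as close. Each group thus held n = 2 samples, whose spread may be technical. The arrays of both plasmid groups lay on 1 slide, and the siRNA and the negative control arrays each on another, so slide and group cannot be told apart except between the plasmid groups. Meg3 had 3 probes, of which only the brightest over all arrays, A_51_P455997, was read here. It was at -7.93, -6.58 and -7.59 on the arrays labelled pcDNA3.1-MEG3, where it was not well above background. On those labelled pcDNA3.1 it was at -2.47, -2.38 and -2.48, which by this probe goes against the labels. On the siRNA arrays (-7.75, -6.88 and -7.74) no array was well above background for Meg3 and on the negative control arrays (-6.79, -6.48 and -7.02) only replicate 2 was, so the knockdown label could not be checked by this probe. Every direction between the plasmid groups is therefore one between labels. Of 8 myoblast markers, 7 or 8 were well above background on every array.

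Oas2 and Oas1a differed most between the groups, with high levels on the arrays labelled with either plasmid and levels at or near the background on the negative control arrays. Oas2, the synthetase with a repeated domain, was measured by probe A_55_P2019719. It stood at 2.60, 2.50 and 2.58 on the arrays labelled pcDNA3.1-MEG3 and at 2.52, 2.46 and 2.50 on those labelled pcDNA3.1. On the siRNA arrays it stood at -4.13, -4.51 and -4.19, and on the negative control arrays at -6.70, -7.53 and -8.28, where no array was well above background. On the plasmid arrays Oas2 was thus among the bright probes, the siRNA arrays lay far below them, and the negative control arrays lay lowest. These 3 levels did not overlap, an order that was not counted over all probes.

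Oas1a, the synthetase of the short form, had 2 probes. Probe A_55_P1998943 stood at 3.40, 3.42 and 3.41 on the arrays labelled pcDNA3.1-MEG3, at 2.84, 3.20 and 2.83 on those labelled pcDNA3.1, at -3.25, -3.14 and -3.21 on the siRNA arrays, and at -5.88, -5.98 and -6.03 on the negative control arrays. The order of the groups was the same as for Oas2, and 1 of the 3 negative control arrays was well above background. Probe A_55_P1998942 stood at -0.37, -0.28 and -0.39 on the arrays labelled pcDNA3.1-MEG3 and at -1.50, -1.55 and -1.46 on those labelled pcDNA3.1. It was not well above background on any siRNA array (-7.48, -8.04 and -7.49) or any negative control array (-8.17, -8.96 and -8.25), so it separated the plasmid arrays from the rest and gave no order below them.

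**Figure D1:**
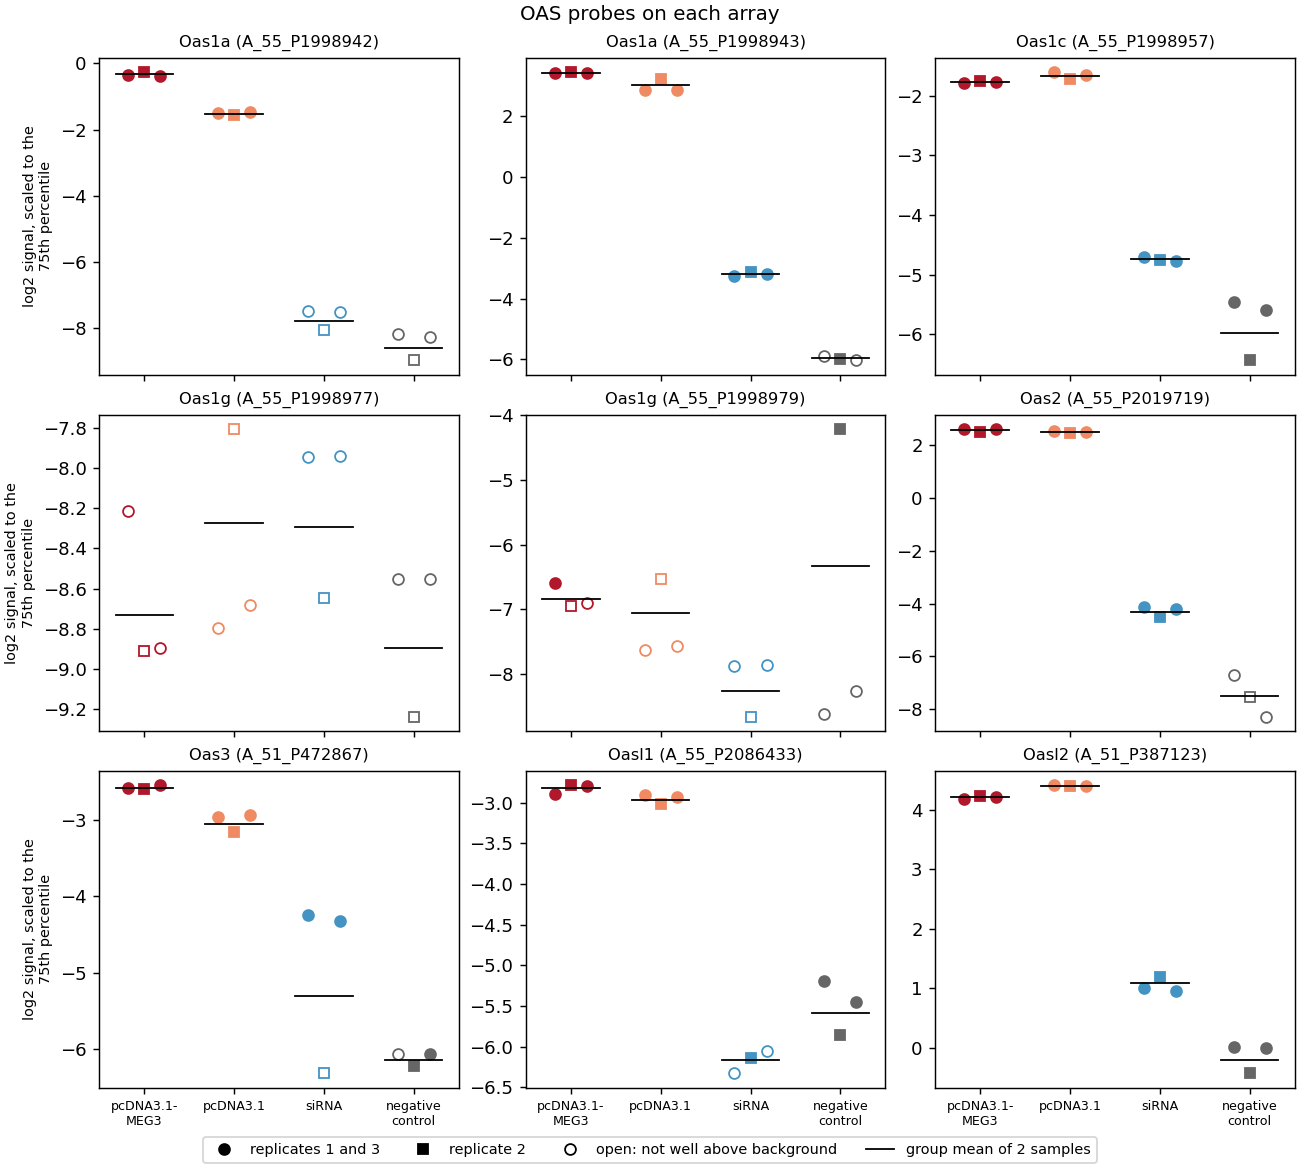
The 9 OAS probes on each array, by group, as log2 signal scaled to the array's 75th percentile (each panel has its own axis). Circles are replicates 1 and 3, squares are replicate 2, open symbols are not well above background, and lines are the means of the 2 samples. In 7 panels every plasmid array lies above every siRNA and negative control array, an order that was not counted over all probes. The 2 Oas1g panels show no such order.

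Oas1c, an Oas1 gene whose protein lacks synthetase activity, was well above background on all 12 arrays. Its level was -1.79, -1.75 and -1.78 on the arrays labelled pcDNA3.1-MEG3, -1.61, -1.72 and -1.65 on those labelled pcDNA3.1, -4.70, -4.75 and -4.78 on the siRNA arrays, and -5.47, -6.43 and -5.59 on the negative control arrays. The plasmid, siRNA and negative control arrays did not overlap, which was not counted over all probes, and the negative control arrays were the most spread. Between the plasmid labels Oas1c did not pass (difference -0.09, limma adjusted p = 0.898). Oas3, the synthetase with the most repeated domains, stood at -2.58, -2.59 and -2.54 on the arrays labelled pcDNA3.1-MEG3, -2.96, -3.15 and -2.94 on those labelled pcDNA3.1, -4.24, -6.32 and -4.32 on the siRNA arrays, and -6.07, -6.23 and -6.06 on the negative control arrays. The siRNA samples of Oas3 disagreed: replicate 2 lay below the lowest negative control value and was not well above background.

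The OAS-like genes differed in the order of their groups. Oasl2, whose mouse protein makes 2-5A, was well above background on all 12 arrays, at 4.18, 4.24 and 4.21 on the arrays labelled pcDNA3.1-MEG3, 4.41, 4.39 and 4.40 on those labelled pcDNA3.1, 1.01, 1.20 and 0.95 on the siRNA arrays, and 0.02, -0.42 and 0.00 on the negative control arrays. It was thus bright in every group, and its order was again plasmids, siRNA, negative control. Oasl1, which in the mouse represses translation of Irf7 and makes no 2-5A, stood at -2.89, -2.79 and -2.79 on the arrays labelled pcDNA3.1-MEG3, -2.91, -3.02 and -2.93 on those labelled pcDNA3.1, -6.32, -6.14 and -6.06 on the siRNA arrays, and -5.19, -5.86 and -5.44 on the negative control arrays. For Oasl1 alone among the 7 probes the siRNA arrays were the lowest, and only 1 of them was well above background.

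The 2 probes of Oas1g, the other active short synthetase, were dim. No array showed probe A_55_P1998977 well above background, with levels of -9.24 to -7.80. Probe A_55_P1998979 was well above background on 2 arrays of different groups, at -6.59 on replicate 1 of pcDNA3.1-MEG3 and at -4.21 on replicate 2 of the negative control. Oas1g could therefore not be compared between the groups. A probe entered the tests if all arrays of some group showed it well above background: 7 of the 9 member probes did, from 6 of the 8 genes. Admission through the group where a probe is high favours a difference from the other groups. The Oas3 probe and Oas1a probe A_55_P1998942 were admitted through the plasmid groups alone, so their p values against the other groups are not independent of the filter. Oas2 and Oas1a probe A_55_P1998943 were admitted through the plasmid and siRNA groups, so their p values against the negative control are not independent either. Oasl1 was admitted through the plasmid and negative control groups, and the same holds for its p values against siRNA. The probe sequences were not used here, so how far a probe of 1 OAS gene also binds the RNA of a related gene was not tested.

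The first comparison set both plasmid groups against the negative control. All 7 kept OAS probes were higher on the plasmid arrays, with differences of 2.69 to 10.02 on the log2 scale and a median of 4.51. Over all 29597 probes tested by limma (Benjamini-Hochberg adjusted p under 0.05, two-sided), 12.9% were higher and 8.37% were lower on the plasmid arrays, with a median of 0.18. Centring on the median in place of the 75th percentile shifted that median to -0.24 and turned the split from 3804 higher and 2477 lower into 1411 higher and 6557 lower, while all 7 OAS probes were still higher. As these are RNA pools of whole cultures, more cells with a given RNA and more of it per cell cannot be told apart.

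Oas2 was at least 589-fold brighter on the plasmid arrays (mean 2.51 there, against -7.51 on the negative control arrays, difference 10.02, SE 0.14, limma adjusted p = 1.70e-05, n = 2 samples in each of the 3 groups). "At least" marks a fold against a group in which part or all of the arrays were not well above background: the dimmer group is then taken, on each array, at no less than the dimmest signal that was. Oas1a was at least 581-fold brighter by probe A_55_P1998943 (difference 9.18, SE 0.14) and at least 54.4-fold by probe A_55_P1998942 (7.66, SE 0.26). The limma adjusted p was 1.70e-05 for the first of them and 0.000116 for the second. Oasl2 was 22.8-fold higher (4.51, SE 0.16, adjusted p = 0.000123) and Oas1c 19.2-fold higher (4.26, SE 0.25, adjusted p = 0.000540). Oas3 was at least 10.1-fold brighter, with 2 of 3 negative control arrays well above background (3.34, SE 0.53, adjusted p = 0.0116). Oasl1 had the smallest difference and was 6.47-fold higher (2.69, SE 0.17, adjusted p = 0.000716). In every case all 6 plasmid arrays lay above all 3 negative control arrays, though how many of all probes show that order was not counted.

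Markers of other cell types and of myoblasts were read beside these differences. Of 10 leucocyte markers 9 were on the array, and their summed signal, in multiples of the 75th percentile, was 3.72 to 3.81 on the arrays labelled pcDNA3.1-MEG3, 3.40 to 4.04 on those labelled pcDNA3.1, 2.64 to 3.1 on the siRNA arrays and 3.13 to 3.59 on the negative control arrays. Of 8 tested, Cd14 was 1.79-fold higher and Itgam, by its brightest probe, 2.93-fold lower on the plasmid arrays. Over all probes, 12.9% were higher and 8.37% lower there. Itgam probe A_55_P1977929 went the other way, at -4.75 (pcDNA3.1-MEG3) and -4.72 (pcDNA3.1) against -5.47 in the negative control. Itgam probe A_55_P1977926 was nearly level, at -3.59, -3.50 and -3.45 in these groups. Among 8 myoblast markers Itga7 was 1.44-fold lower, and Myf5, a myogenic transcription factor, was at least 22.5-fold dimmer on the plasmid arrays, where 3 of 6 arrays were well above background. Of 4 endothelial markers 0 passed, and of 4 fibroblast markers 2 were lower on the plasmid arrays, where Col1a1 had no value on pcDNA3.1 replicates 1 and 3. The part of these differences in the OAS levels was not tested.

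**Figure D2:**
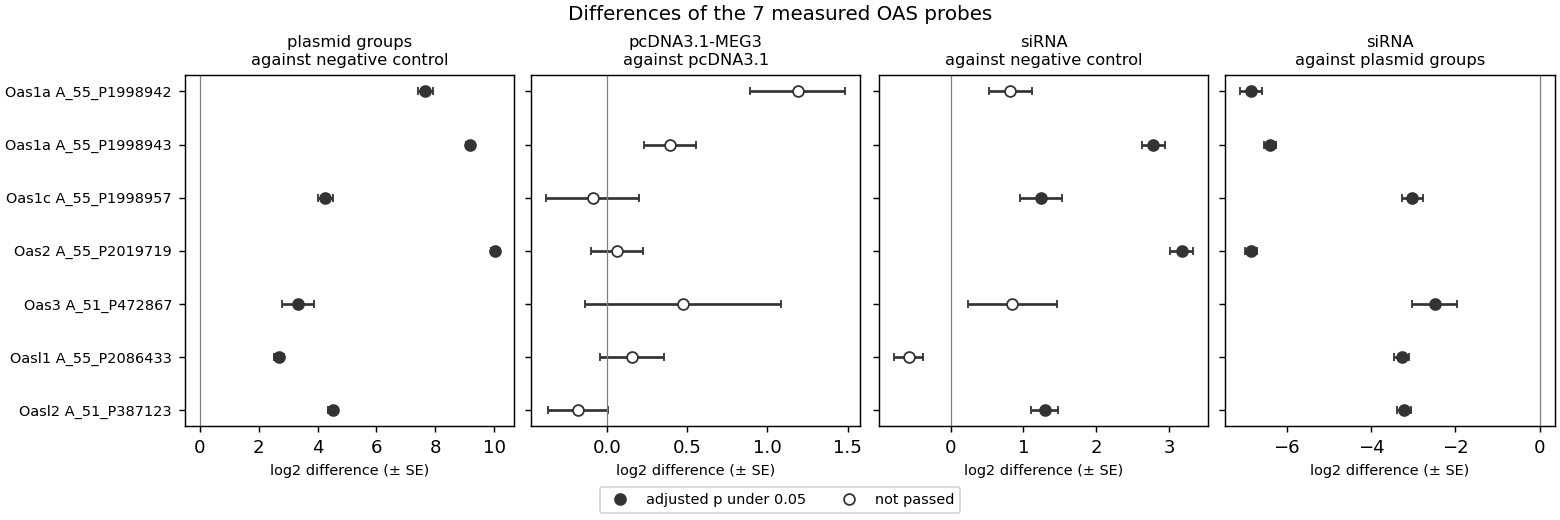
Log2 differences of the 7 kept OAS probes in the 4 comparisons, first-named group minus second, with 1 SE from limma (n = 2 samples per group). Filled points have an adjusted p under 0.05. All 7 are above 0 for the plasmid groups against the negative control and below 0 for siRNA against the plasmid groups, and all 7 are open for pcDNA3.1-MEG3 against pcDNA3.1; each panel has its own axis.

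The second comparison, within 1 slide, set the arrays labelled pcDNA3.1-MEG3 against those labelled pcDNA3.1. None of the 7 OAS probes passed limma's test here, and 1 of them had an unadjusted p under 0.05. The background was 0% higher and 0.00676% lower, which is 2 of 29601 probes, with 3483 at an unadjusted p under 0.05 in either direction. The 7 differences ran from -0.18 (Oasl2) to 1.19 (Oas1a, probe A_55_P1998942), with a median of 0.16 beside -0.14 over all probes.

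The Oas1a probes had the widest gap between the plasmid labels relative to its error. Probe A_55_P1998942 was 2.28-fold higher on the arrays labelled pcDNA3.1-MEG3 (means -0.33 ± 0.07 and -1.52 ± 0.05 on those labelled pcDNA3.1, SD, n = 2), with an SE of 0.30 and an adjusted p of 0.231. The limma adjusted p was 0.0386 without either sample of the negative control, which enters through the shared estimate of the spread, and 0.0127 with the plasmid groups fitted alone. In those fits the calls over all 29601 probes were 2477 higher and 1460 lower, and 2451 higher and 1242 lower. The gap was 1.20 within the first scan of the slide, with 2 arrays per group, and 1.07 within the second, with 1 array per group. That second scan held replicate 3 of each group, counted as 1 sample with replicate 1, so it is not an independent repeat. Probe A_55_P1998943 differed by 0.39 (SE 0.16, adjusted p = 0.434), by 0.39 in the first scan and 0.58 in the second. The differences of Oas3 (0.47, SE 0.61), Oasl1 (0.16, SE 0.20), Oas2 (0.06, SE 0.16), Oas1c (-0.09, SE 0.29) and Oasl2 (-0.18, SE 0.19) were within 1 SE of 0.

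The third comparison set the siRNA arrays against the negative control, and shares those control samples with the first. Of the 7 OAS probes 4 were higher on the siRNA arrays and 0 lower, beside 7.31% higher and 4.73% lower of 29559 probes tested. At an unadjusted p under 0.05, 5 were higher and 1 was lower, beside 8535 of the 29559 probes in either direction. The median of the 7 was 1.24, against 0.05 over all probes.

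Oas2 was at least 5.11-fold brighter on the siRNA arrays (mean -4.34, against -7.51 on the negative control arrays, difference 3.17, SE 0.16, limma adjusted p = 0.000563). Oas1a was at least 6.89-fold brighter by probe A_55_P1998943 (2.79, SE 0.16, adjusted p = 0.000907), while probe A_55_P1998942 was not well above background on any of the 6 arrays (difference 0.82, adjusted p = 0.136). Oasl2 was 2.45-fold higher (means 1.09 ± 0.15 and -0.20 ± 0.31, SD, n = 2, limma adjusted p = 0.0133, and 0.17 with the compared groups alone). Oas1c was 2.36-fold higher with an adjusted p of 0.0476, which did not hold without any 1 of the plasmid or siRNA samples (0.0744 to 0.111). The plasmid samples enter here through the shared estimate of the spread.

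The other members did not pass. Oas3 differed by 0.85 (SE 0.61, adjusted p = 0.425), and without siRNA replicate 2 by 1.87, with an adjusted p of 0.00698. Oasl1 had the opposite sign, with a mean of -6.16 on the siRNA arrays and -5.59 on the negative control arrays (difference -0.58, SE 0.20, limma adjusted p = 0.123). Its siRNA and negative control arrays did not overlap, which was not counted over all probes. Without negative control replicate 2 the difference was -0.85.

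The fourth comparison set the siRNA arrays against both plasmid groups, and shares samples with the comparisons above. All 7 probes were lower on the siRNA arrays, where the background was 10.4% higher and 8.84% lower of 29554 probes, and their median was -3.27 beside -0.12. Oas2 was 115-fold lower on the siRNA arrays (log2 difference -6.85, SE 0.14, limma adjusted p = 9.03e-05), and Oas1a probe A_55_P1998943 was 84.3-fold lower (-6.40, SE 0.14, adjusted p = 9.13e-05). Oasl2 differed by -3.22 and Oas1c by -3.02, which is 8.13-fold lower. Oas1a probe A_55_P1998942 was at least 37.5-fold dimmer and Oasl1 at least 8.36-fold dimmer. Oas3, with 2 of 3 siRNA arrays well above background, differed by -2.49 (SE 0.53, limma adjusted p = 0.0267), by -1.47 without siRNA replicate 2 and by -3.51 with that replicate alone. Its call was lost without any 1 of the 4 plasmid samples (adjusted p = 0.0727 to 0.0875).

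Markers of myoblasts and other cells moved in the siRNA comparisons too. Of 8 myoblast markers 4 were higher on the siRNA arrays than on the plasmid arrays, beside 10.4% of all probes. These 4 were Myod1 (3.99-fold), Cdh15 (2.67-fold), Itga7 (2.55-fold) and Myf5 (at least 3.1-fold). Of 4 fibroblast markers Col1a1 and Dcn were higher there, with Col1a1 in pcDNA3.1 resting on replicate 2 alone. The summed fibroblast signal, in multiples of the 75th percentile, was 155 to 178 on the siRNA arrays and 93.8 to 142 on the negative control arrays. It was 27.3 to 59.5 on the arrays of both plasmid groups, but Col1a1 had no value on pcDNA3.1 replicates 1 and 3. The low end of 27.3 leaves Col1a1 out and cannot be compared with the other sums. On the arrays labelled pcDNA3.1-MEG3, which all had a Col1a1 value, the lowest sum was 40.9. Against the negative control Myod1, Cdh15 and Itga7 were higher and Myf5 was lower on the siRNA arrays, with 0 of 4 fibroblast markers passing. Over all probes, 7.31% were higher and 4.73% lower in that comparison. The part of these markers in the OAS differences was not tested.

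The other Oas1 genes of the mouse lie in the same stretch of chromosome 5. In RefSeq's gene order Oas2, Oas3, Oas1e, Oas1c, Oas1b, Oas1f, Oas1h, Oas1g and Oas1a follow each other with no gene between them, then Oas1d after 1 other gene, while Oasl2 and Oasl1 lie together 138 genes away. Oas1f, an Oas1 paralog, was well above background on all 12 arrays, at 1.31, 1.06 and 1.33 on the arrays labelled pcDNA3.1-MEG3, 0.83, 0.86 and 0.88 on those labelled pcDNA3.1, -3.75, -3.87 and -3.80 on the siRNA arrays, and -4.96, -5.21 and -5.09 on the negative control arrays. It was 70.6-fold higher on the plasmid arrays than on the negative control arrays (adjusted p = 5.50e-05) and 2.45-fold higher on the siRNA arrays than on the negative control arrays (adjusted p = 0.00767, and 0.133 with the compared groups alone).

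Oas1e, Oas1h and Oas1d stayed near the background. Oas1e was at least 1.92-fold brighter (adjusted p = 0.0443) and Oas1h at least 1.47-fold (adjusted p = 0.0256, probe A_55_P2149492) on the plasmid arrays, with no negative control array well above background for either. Both probes entered the tests only through the pcDNA3.1-MEG3 arrays, where they are highest, so these p values are not independent of the filter. The call of Oas1e was lost without negative control replicate 2 or any 1 plasmid sample (limma adjusted p = 0.0932 to 0.127), and that of Oas1h without any 1 sample of the negative control or pcDNA3.1-MEG3 (0.0616 to 0.0913). On the siRNA arrays Oas1e lay below the negative control (difference -1.09, adjusted p = 0.0738, and 0.0219 without negative control replicate 2), with no array of either group well above background. Oas1d, which is known from the mouse ovary and egg, was the only OAS gene tested whose difference on the plasmid arrays was negative: its means were -5.89 on the plasmid arrays, -6.51 on the siRNA arrays and -4.87 on the negative control arrays, and neither difference from the negative control passed (adjusted p = 0.0827 for the plasmids, 0.0479 without either siRNA sample, and 0.0504 for siRNA).

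**Figure D3:**
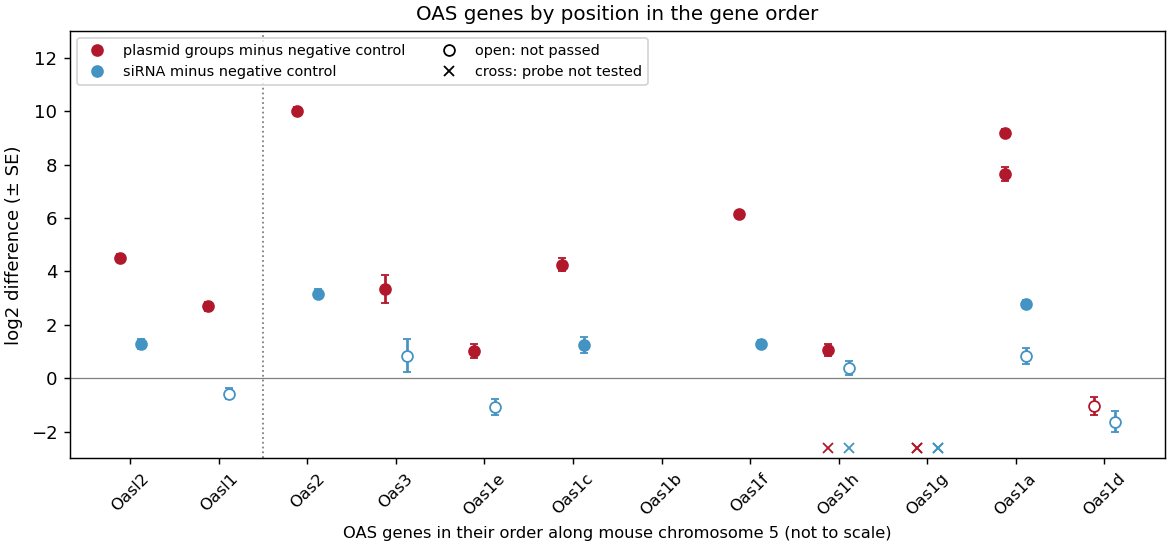
Log2 differences from the negative control, with 1 SE, of the OAS genes in their order along mouse chromosome 5 (positions not to scale; the dotted line marks the gap of 138 genes). Red points are the plasmid groups and blue points siRNA, filled where the adjusted p was under 0.05, and crosses are probes that the filter left out. No probe was matched to Oas1b, and in the fit Oas2 and Oas1a lie at 10.02 and 9.18 for the plasmid groups.

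Genes that act with the family were taken as lists, with the brightest probe standing for a gene. Over all probes, 12.9% were higher and 8.37% lower on the plasmid arrays than on the negative control arrays. Among genes of interferon induction and signalling, 4 of 11 tested were higher in that comparison and 0 lower, with a median of 0.25. They were Usp18, which removes ISG15 and restrains the interferon receptor (7.15), the transcription factors Irf9 (2.57) and Stat2 (2.07), which act in the response to interferon, and Irf7 (2.12), a transcription factor of interferon genes. No negative control array was well above background for Irf7, which was at least 3.97-fold brighter on the plasmid arrays. The receptor and kinase genes did not pass, with differences of 0.25 for Ifnar1, -0.06 for Ifnar2, 0.36 for Jak1 and -0.26 for Tyk2, nor did Irf3, Irf1 or Socs1. Without negative control replicates 1 and 3, 7 of the 11 were higher and 1 lower, with Ifnar1 (0.57, adjusted p = 0.0108), Jak1 (0.53, adjusted p = 0.0238) and Irf1 (0.34, adjusted p = 0.0276) added to the higher ones and Tyk2 lower (adjusted p = 0.0148), beside 6117 higher and 3893 lower of 29569 probes. Ifnb1, which encodes interferon beta, was well above background only on pcDNA3.1 replicates 1 and 3 (-4.13 and -4.17), 2 scans of 1 hybridisation, and not on replicate 2 of that group (-8.46).

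Irf7 had the widest gap between the plasmid labels among the 11. It stood at -3.25, -3.35 and -3.21 on the arrays labelled pcDNA3.1-MEG3, at -6.04, -5.80 and -6.30 on those labelled pcDNA3.1, at -7.15, -7.78 and -7.02 on the siRNA arrays and at -6.43, -6.88 and -6.84 on the negative control arrays. The gap between the plasmid labels was 2.70, with a limma adjusted p of 0.0966 that did not pass and one of 0.0119 with the compared groups alone. Irf7 entered the tests only through the pcDNA3.1-MEG3 arrays, where it is high, so its p values are not independent of the filter. With the compared groups alone Tyk2 (1.45, limma adjusted p = 0.0172) and Ifnar1 (-0.47, adjusted p = 0.0421) passed too. That fit called 2451 higher and 1242 lower of 29601 probes. The other Ifnar1 probes went the other way. Probe A_55_P2454784 averaged -0.77 on the arrays labelled pcDNA3.1-MEG3 and -1.36 on those labelled pcDNA3.1, and probe A_55_P2438722 averaged -4.85 and -5.55. On the siRNA arrays 1 of the 11 genes was higher than on the negative control arrays, beside 7.31% of all probes. It was Usp18 (2.60, limma adjusted p = 0.00201, and 0.0694 with the compared groups alone). Lower than on the plasmid arrays were 4 of 11, namely Usp18, Irf7, Irf9 and Stat2, beside 8.84% of all probes.

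Among other sensors and effectors of double-stranded nucleic acid, 8 of 10 were higher on the plasmid arrays, beside 12.9% of all probes. The median difference of the 10 from the negative control arrays was 1.47. The largest differences were those of Zbp1, a sensor of Z-form nucleic acid (4.03), Dhx58 (3.02) and Ifih1 (2.64), both helicases of the RIG-I type, and Ddx58, which encodes RIG-I (1.95). Eif2ak2, the kinase PKR, differed by 1.76, and Adar, the RNA-editing deaminase, by 1.18. Cgas differed by 0.81 and Tlr3 by 0.63, calls lost without any 1 of the 4 plasmid samples (adjusted p = 0.0704 to 0.0973 for Cgas and 0.0661 to 0.0913 for Tlr3), while the adaptors Sting1 (0.58) and Mavs (-0.30) did not pass. Sting1 passed without negative control replicates 1 and 3 (0.83, adjusted p = 0.00845), and Mavs without negative control replicate 2 (-0.68, adjusted p = 0.0102). A second probe of Cgas went the other way and passed (-2.04). On the siRNA arrays Zbp1 was higher than on the negative control arrays (1.70, limma adjusted p = 0.00397, and 0.104 with the compared groups alone). By brightest probes it was the only one of the 10, beside 7.31% of all probes (a second probe of Ifih1 also passed, at 1.41). Beside 8.84% of all probes, 7 of the 10 sensors were lower on the siRNA arrays than on the plasmid arrays. Of those, the call of Ddx58 was lost without any 1 plasmid sample or siRNA replicate 2 (adjusted p = 0.0682 to 0.0852). Which of the 10 sensors were called for siRNA against the negative control changed when a negative control sample was left out, as did the calls over all probes.

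Of the genes listed for the turnover and action of 2-5A, 4 were tested. Enpp1, a membrane enzyme that hydrolyses nucleotides including 2-5A, stood at -2.56, -2.72 and -2.56 on the arrays labelled pcDNA3.1-MEG3, at -2.40, -2.38 and -2.33 on those labelled pcDNA3.1, at -0.43, -0.38 and -0.41 on the siRNA arrays and at 0.16, 0.17 and 0.02 on the negative control arrays. It was the only one of the 4 to pass for the plasmid groups against the negative control. Over all probes, 12.9% were higher and 8.37% lower there. The direction of Enpp1 was opposite to that of the OAS probes. It was 6.20-fold lower on the plasmid arrays than on the negative control arrays (limma adjusted p = 0.000220). On the siRNA arrays it was 4.31-fold higher than on the plasmid arrays. Pde12, a 2-5A phosphodiesterase (0.30), Abce1, an ATPase that splits ribosomes (0.30), and Akap7, whose protein has a domain that degrades 2-5A (-0.51), did not pass by their brightest probes, and the other 2 probes of Akap7 were lower (-0.57 and -1.29). Akap7 was 1.91-fold higher on the siRNA arrays than on the plasmid arrays, a call lost without any 1 plasmid or siRNA sample (adjusted p = 0.0667 to 0.101). Of the 4 genes 0 passed for siRNA against the negative control, although Enpp1 was lower on the siRNA arrays without negative control replicate 2 (adjusted p = 0.0294) and without replicates 1 and 3 (adjusted p = 0.0212), where Abce1 and Akap7 were higher. With all samples no gene of these lists passed between the plasmid labels. There 2 of 11 interferon genes, 0 of 10 sensors and 0 of 4 genes of 2-5A turnover had an unadjusted p under 0.05, beside 3483 of 29601 probes.

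**Figure D4:**
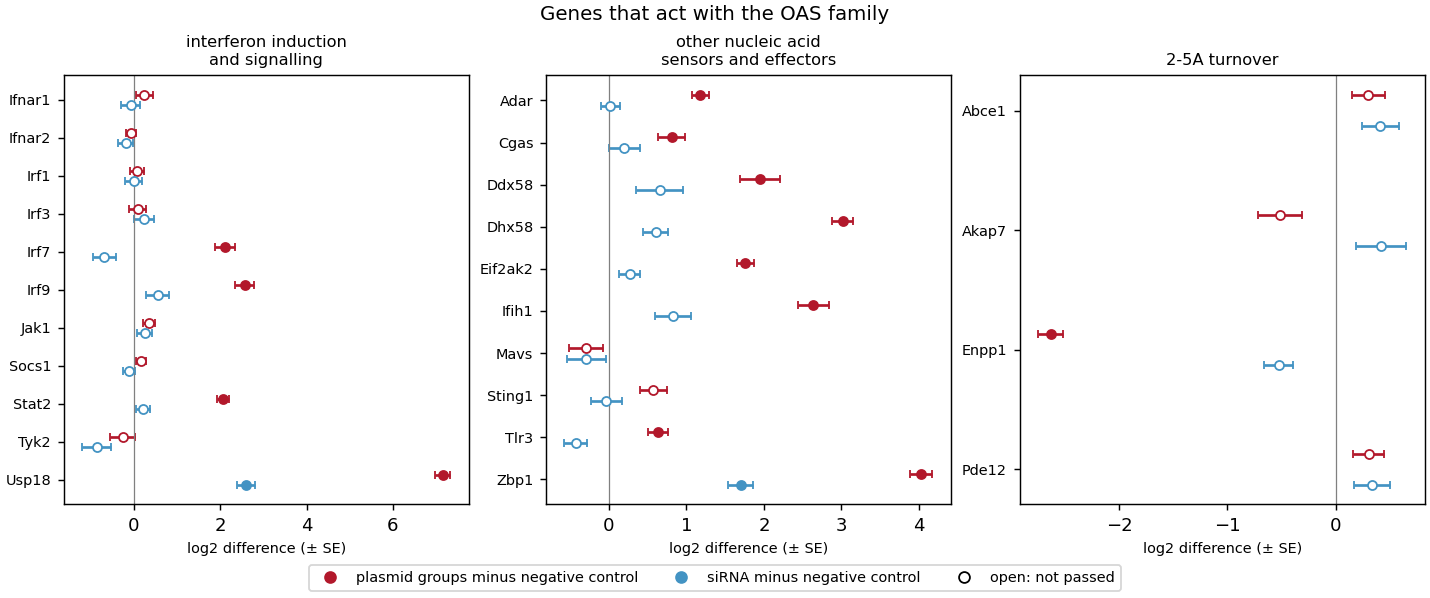
Log2 differences from the negative control, with 1 SE, of genes of interferon signalling, other nucleic acid sensors and 2-5A turnover (brightest probe per gene). Red points are the plasmid groups and blue points siRNA, filled where the adjusted p was under 0.05; the siRNA point of Ifnar2 rests on 1 of its 2 samples. Usp18 lies at 7.15 and 2.60, and Enpp1 at -2.63 for the plasmid groups.

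The genes with the levels most like those of the family were found by their correlation with the mean of the centred OAS probes over the 8 samples, among 24272 genes. They were Oas1f (r = 0.999), Ifi44, Plac8, Gm4951, Dhx58, Cmpk2, Gbp9, Phf11b, Apol9b and Pip4k2c (r = 0.995), and 3 probes without a symbol had an r at or above the last of them. Since the plasmid samples lie apart from the other 4, r mainly measures that split and is given as a description of samples that share arrays and slides. Ifi44 averaged 2.11 on the arrays labelled pcDNA3.1-MEG3, 2.11 on those labelled pcDNA3.1, -3.1 on the siRNA arrays and -4.23 on the negative control arrays, and Apol9b averaged 6.05 on the arrays labelled pcDNA3.1-MEG3, 6.09 on those labelled pcDNA3.1, 3.85 on the siRNA arrays and 2.93 on the negative control arrays. Pip4k2c matched the shape with a narrower range, from 2.12 on the arrays labelled pcDNA3.1-MEG3 to 1.28 on the negative control arrays. Within the family the r of each probe with the mean of the others was 0.939 (Oasl1) to 0.994 (Oas1a, probe A_55_P1998943).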

How the data were processed

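Cy3-labelled RNA was hybridised to single-colour Agilent mouse arrays. Per the file headers, Feature Extraction 11.0.1.1 gave each spot a linear intensity after background subtraction and without scaling between arrays, together with flags (0 or 1) such as well above background, outlier or saturated. The series table that the authors deposited gives linear intensities too; its column medians are 276 to 277, its ranks follow the scanner signal (0.99994 or more), and no source used here says how it was scaled. The array annotation names an older genome build than RefSeq's GRCm38.p6, which served for names, gene order and promoters.

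Control and outlier spots were left out, spots of a probe averaged, and log2 signals scaled by the 75th percentile of each array. Of 39429 probes, 27228 matched a RefSeq symbol. Tests ran under R 4.3.3 in limma 3.58.1, with tables read by data.table (1.17.8), using 1 fit over 8 samples with 4 residual degrees of freedom and 1.91 prior ones, after a test on simulated data. The number of arrays limits the precision. A probe was called at a Benjamini-Hochberg adjusted p below 0.05. The text names every OAS probe, the genes of the lists and the 10 genes most like the family. Some genes of the planned lists are not reported here. Members and lists were chosen with earlier results of these data known. Replicate numbers did not pair samples (correlations of deviations -0.0968 to 0.0512). Alternatives covered background, scaling, the filter, replicates and left-out samples. The normexp correction used the median spot signal, since the files hold no mean signal.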

Additional observations from a re-analysis of the deposited data

How the results depend on the processing

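The OAS counts were recomputed under other scalings, sources, filters and sample sets. For the plasmid groups against the negative control the count of 7 higher probes held in every alternative with all 7 tested (7 to 7 when a sample was left out), except under the normexp background correction with all spots, where 0 were called. That correction called 0 higher for siRNA against the negative control and 0 lower for siRNA against the plasmid groups too, and there Irf7 (0.327), Oas1e (0.874) and Tlr3 (0.255) turned to higher on the siRNA arrays than on the plasmid arrays. On 3 arrays it estimated a negative mean background (-903.9, -795.8 and -1005.6), where 6, 12 and 18 spots had a local background over 10 times the array's median. Without those spots, a choice made after seeing the data, 7, 3 and 7 probes were called in these comparisons. For siRNA against the negative control, 2 higher probes were called with the compared groups alone (161 higher and 27 lower over all probes), 3 to 5 when a sample was left out (698 to 5708 higher and 481 to 4233 lower over all probes), and 0 to 1 lower (Oasl1, without negative control replicate 2). With 12 arrays as 12 samples 1 was lower, and likewise 1 with the replicate number as a block, a fit whose pairing the numbers do not bear out. Between the plasmid labels 2 probes, both of Oas1a, were higher with 12 arrays and 2 with the replicate block, 1 with the compared groups alone (2451 higher and 1242 lower over all probes), and 0 to 1 when a sample was left out (0 to 2477 higher and 0 to 1460 lower over all probes). For siRNA against the plasmid groups 6 to 7 were lower when a sample was left out (751 to 5660 lower and 1224 to 6064 higher over all probes), and for the plasmid groups against the negative control the calls over all probes then ran from 937 to 6807 higher and from 988 to 5402 lower. Over all probes, calls moved by more than 1.5 times: with 12 arrays 9889 were higher and 5689 lower for the plasmid groups against the negative control, and between the plasmid labels 2452 and 1934, against 0 and 2. Median centring gave 1238 higher and 1954 lower for siRNA against the negative control (2162 and 1398 in the report) and 5154 and 1534 against the plasmid groups (3072 and 2612). Quantile normalization gave 3096 higher and 3745 lower for the plasmid groups against the negative control, and 4144 and 2017 for siRNA against the plasmid groups. Taking each plasmid group as 1 sample leaves the means as printed, with no test between them. Dim probes (both of Oas1g) give no comparison at this signal over background.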
